A study of Mus musculus with 6 samples.

Results

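The Rab genes encode the largest branch of the Ras superfamily of small GTPases. The members described here are the protein-coding genes of the deposited expression table whose symbol is Rab followed by digits and at most a letter, which leaves out effectors, regulators and the Rab11fip genes. This name rule took 59 of the 54532 genes in the table. Polyadenylated RNA was sequenced from cultured wild-type granulosa cells of the mouse ovary, which nurse the oocyte in the follicle, kept in medium with 10% serum. A group of 3 libraries came from untreated cells and a group of 3 libraries from cells exposed for 24 h to cyclophosphamide, an alkylating chemotherapy drug that liver enzymes convert to its active form. The series title concerns serine and ferroptosis, but no library is labelled as given serine, and the sources used here give no dose, mouse strain or age. The treatment label of the exposed samples reads as an injection into animals, while the protocol and the design text describe drug given to cells in culture, and the exposure is described here in the latter way. No label says that replicates came from separate cultures or animals, so the p-values measure the spread between these libraries, which may be technical.

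A Rab protein is a switch. It is active with GTP and inactive with GDP, and lipid groups attached to cysteines at its end let it sit on the membrane of a particular organelle. Exchange factors load GTP, GTPase activators end the active state, and a dissociation inhibitor (GDI) draws the inactive form off the membrane and returns it to the cytosol. Active Rabs recruit effectors such as tethers, motors and lipid kinases, which bud, move, dock and fuse vesicles. Granulosa cells depend on this traffic to secrete inhibins, activins and extracellular matrix, to present and recycle hormone receptors, and to take up lipoprotein cholesterol.

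The libraries held 16458385 to 17607586 reads. In the test across all genes described below, 69.3% of the genes tested were called, 33.3% higher and 35.9% lower, and the marker counts that follow stand beside these shares. Of 18 granulosa marker genes 16 were tested, and 2 were called higher and 13 lower with cyclophosphamide. All 18 summed to 3029 to 3226 FPKM in untreated libraries and 1194 to 1517 FPKM in cyclophosphamide libraries. FPKM is a read density per gene length and library size, on which different genes can be compared. Foxl2 and Inha, which define the cell type, were present in both groups but fell, Inha from 1984 to 905 FPKM on average and Foxl2 from 32.5 to 23.9 FPKM. Inhbb, Esr2 and Inhba fell further, with log2 fold changes of -4.90, -2.99 and -2.67. Cyp19a1 had 3 reads in the untreated libraries together and 1 in the cyclophosphamide libraries, and Amh had 16 and 22. Of 12 macrophage markers, 4 passed the filter on low values. Their list summed to between 7.62 and 8.60 FPKM without the drug and between 11.6 and 15.5 FPKM with it, with Csf1r, Cd68 and Cd14 higher, Lyz2 lower, and Adgre1, Ptprc, Itgam and C1qa at 10 reads or fewer per group. Epithelial and mesothelial markers summed to 107.0 to 120.5 and then 50.6 to 74.1 FPKM. Of these 10 markers 6 were tested, with 0 higher and 4 lower. Smooth muscle and pericyte markers summed to 89.3 to 100.4 and then 14.4 to 25.2 FPKM. Of these 9 markers 8 were tested, with 1 higher and 5 lower, and Rgs5 had 0 reads untreated and 1 with cyclophosphamide. Theca and stroma markers summed to 25.5 to 31.3 and then 7.94 to 9.42 FPKM. Of these 8 markers 4 were tested, with 0 higher and 2 lower, and Cyp17a1 had 1 and 8 reads. Oocyte markers stayed at or under 4.95 FPKM in sum, and of these 11 markers 3 were tested, with 2 higher and 0 lower. Endothelial markers stayed at or under 2.69 FPKM in sum. Of these 8 markers 3 were tested, with 1 higher and 0 lower, and the median log2 fold change was -0.32. Gdf9, Ooep and Esam were higher, and Cldn5 had 0 reads in both groups. The part of these shifts in the results below was not tested. In bulk RNA, fewer cells of a type and less RNA per cell cannot be told apart.

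Total Rab expression did not separate the groups, while its makeup did. The 59 genes summed to 1067, 1062 and 1107 FPKM in untreated libraries 1 to 3 and to 1154, 1039 and 1049 FPKM in cyclophosphamide libraries 1 to 3, and these ranges overlap. The family held 0.388%, 0.380% and 0.396% of all FPKM without treatment and 0.384%, 0.371% and 0.379% with it. Each library can also be described by the share of the family's FPKM that each member takes. Such profiles differed by 2.49% to 3.23% of the family's FPKM between untreated libraries, by 3.23% to 6.11% between cyclophosphamide libraries and by 15.1% to 17.9% in the 9 comparisons across groups. The makeup therefore differed more between the groups than among replicates, over an almost level total. No other set of genes was profiled in this way, and 73.4% of all genes tested had groups whose FPKM did not overlap. The sums of the related ARF, ARL and SAR GTPases overlapped too, at 838.8 to 887.3 FPKM untreated and 778.8 to 933.0 FPKM with cyclophosphamide.

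Rab expression was concentrated in a minority of the members. Averaged over the 6 libraries, 23 members lay at 10 FPKM or more, 20 between 1 and 10 and 16 under 1. The 10 most abundant members held 65.5% to 66.1% of the family's FPKM in untreated libraries and 61.9% to 64.4% in cyclophosphamide libraries. The highest means belonged to Rab7, Rab31, Rab2a, Rab10, Rab5c and Rab18, genes of the late endosome, the endosome to Golgi route, the early secretory pathway, exocytosis, the early endosome and the endoplasmic reticulum. Rab31 led the untreated libraries, and Rab10 led the cyclophosphamide libraries.

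In a test across all genes (limma on log2(FPKM + 0.1), Benjamini-Hochberg adjusted over 14751 genes, called at an adjusted p under 0.05), 49 of the 59 members passed the filter on low values. Of these, 16 rose and 20 fell with cyclophosphamide, which is 73.5% of the 49. Across all genes tested 69.3% were called, 33.3% higher and 35.9% lower, so the number of Rab genes called was near the background. The median log2 fold change, here and below cyclophosphamide minus untreated, was -0.01 in the family and -0.02 over all genes, and the median size of change without its sign was 0.42 and 0.57. In each of the 36 called members the groups did not overlap, as in 73.4% of all genes tested, and in each of the 13 members that were not called they did. A change of at least 2-fold was seen in 4 members that rose and 8 that fell, or 24.5% of the 49. Over all genes tested it was 26.6%, with 1480 higher and 2443 lower, so this count too was near the background. The 8 falls include Rab26 and Rab42, which rest on few reads and reached the filter mainly in untreated libraries. The number of falls depends on the constant, being 3 with 0.5 added and 1 with 1 added in place of 0.1. The 10 members left untested were Rab38, Rab25, Rab3b, Rab19, Rab9b, Rab17, Rab44, Rab37, Rab39 and Rab3c, with at most 15 reads in any library and, all together, 143 reads untreated and 66 with cyclophosphamide.

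**Figure D1:**
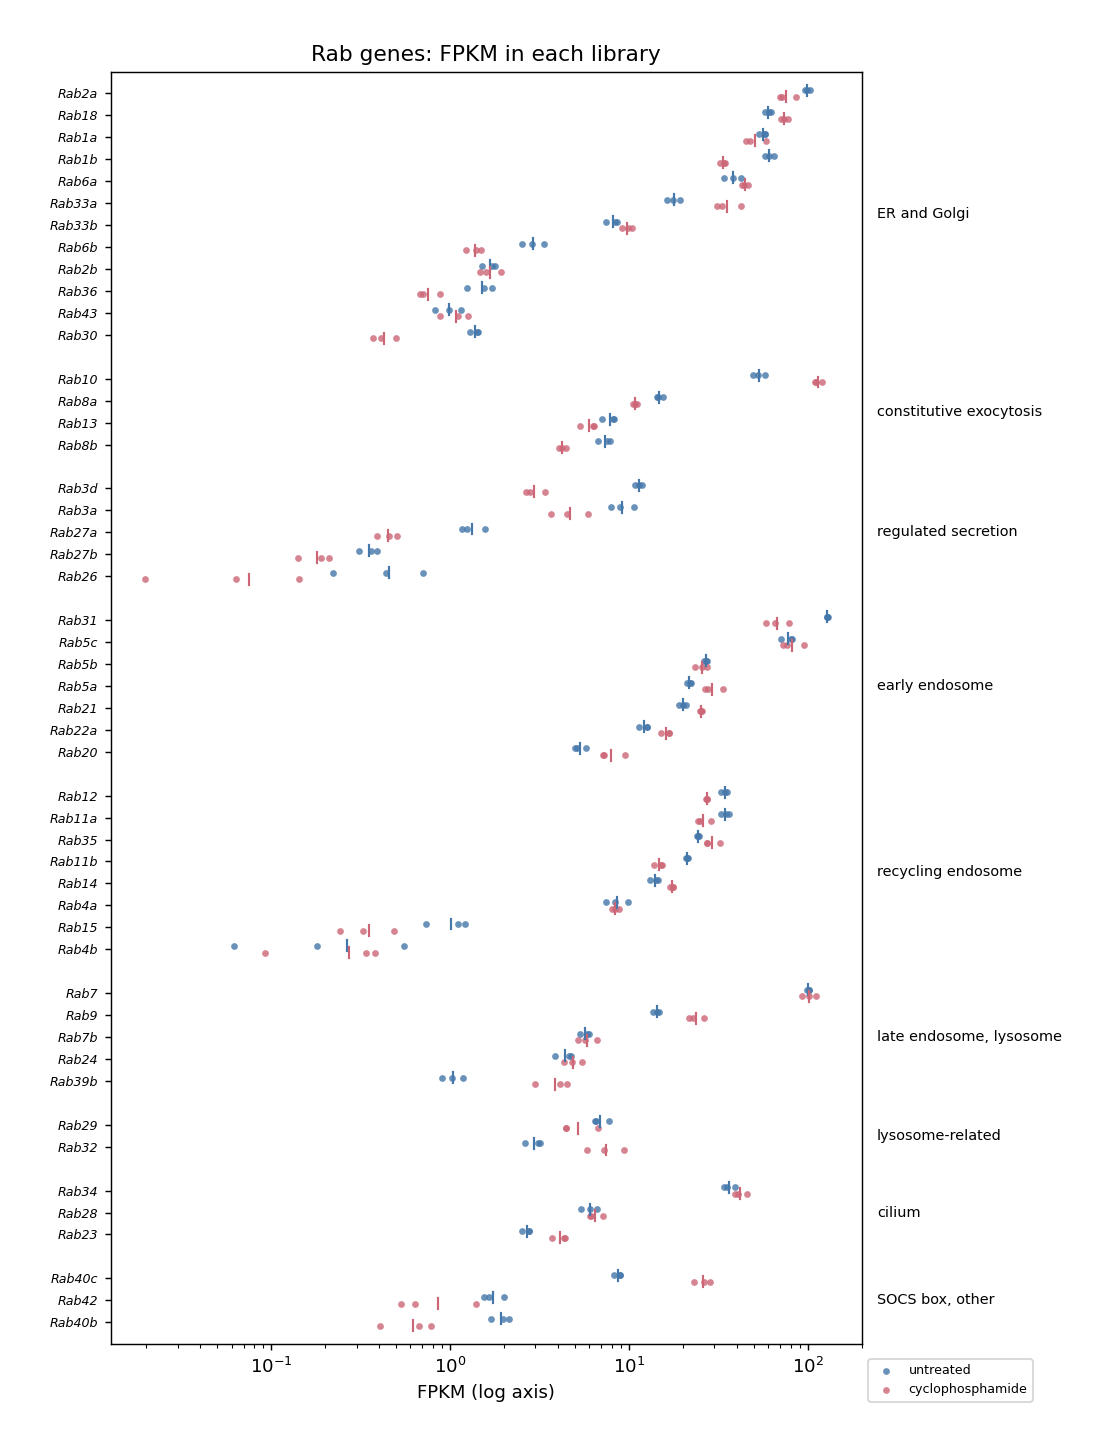
FPKM (log axis) of the 49 tested Rab genes in each library, grouped by compartment. Each point is a library and each vertical bar the mean of the 3 libraries of a group. The points run from under 0.1 FPKM for Rab26 to 129 FPKM for Rab31, and Rab10, Rab40c, Rab39b and Rab3d show wide gaps between the groups.

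Every member ends in cysteines that carry the lipid anchor, and the arrangement of these cysteines is a feature that the choice by name did not use. The last 10 codons and the stop codon were read from the transcripts of GENCODE M21 (build GRCm38) for all 59 members. In 20 members cysteines took the last and the third-last codon, in 15 the last pair of codons, in 6 a pair followed by 3 codons, in 6 a pair followed by 2 codons and in 3 a pair followed by 1 codon. In 9 members a lone cysteine stood at the fourth-last codon, the position of the CAAX signal used for single prenylation. The coding ends of members on which the results below turn, or that stand for a class, are printed 5′ to 3′ on the coding strand with the cysteine codons in capitals.
Rab10: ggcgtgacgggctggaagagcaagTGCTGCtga
Rab31: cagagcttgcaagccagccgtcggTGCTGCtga
Rab22a: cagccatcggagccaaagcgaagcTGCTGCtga
Rab3d: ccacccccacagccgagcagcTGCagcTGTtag
Rab39b: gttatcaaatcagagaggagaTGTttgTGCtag
Rab6a: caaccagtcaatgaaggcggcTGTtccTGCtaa
Rab6b: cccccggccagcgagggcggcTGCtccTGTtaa
Rab5a: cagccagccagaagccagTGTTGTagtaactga
Rab11a: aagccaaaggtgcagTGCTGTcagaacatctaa
Rab20: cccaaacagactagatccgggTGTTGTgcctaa
Rab8a: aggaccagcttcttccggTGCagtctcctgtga
Rab40c: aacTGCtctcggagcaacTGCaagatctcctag
Rab40b: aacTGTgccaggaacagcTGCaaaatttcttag
The ends of Rab10, Rab31 and Rab22a belong to the class with the pair at the very end, those of Rab3d, Rab39b, Rab6a and Rab6b to the class with a codon between the cysteines, and those of Rab8a, Rab40c and Rab40b to the class with a lone cysteine at the fourth-last codon. They lie at chr12:3249787-3249819 (Rab10), chr17:65654406-65654438 (Rab31), chr9:21910484-21910516 (Rab3d), chrX:75574581-75574613 (Rab39b), chr17:25883628-25883660 (Rab40c) and chr11:121357037-121357069 (Rab40b), each on the minus strand and inside the last coding exon.

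Both directions of change occurred within most of these classes. Among tested members, 5 of 16 with cysteines at the last and third-last codons rose and 7 fell, and 5 of 14 with a pair at the very end rose and 5 fell. Of 8 with a lone cysteine 3 rose and 4 fell, and of 4 with a pair followed by 3 codons 1 rose and 3 fell. The members with a pair followed by 2 codons gave 1 higher and 1 lower of 5, and those with a pair followed by 1 codon 1 higher and 0 lower of 2. Each direction's share stands beside 33.3% higher and 35.9% lower over all genes tested, and the classes are too small for more than this description.

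The 59 members were then placed in 9 compartments by the textbook site of action of each protein, although several Rabs act at more than 1 site. The exocytic gene Rab10 had the largest gain in FPKM. Regulated secretion went from 2.00 to 2.25% of the family's FPKM in untreated libraries to 0.668 to 0.870% in cyclophosphamide libraries. Constitutive exocytosis went from 7.53 to 7.95% to 12.3 to 12.6%. The endoplasmic reticulum and Golgi genes went from 31.9 to 32.6% to 29.9 to 30.9%, early endosome genes from 26.8 to 27.8% to 22.4 to 24.5%, and recycling endosome genes from 12.5 to 13.3% to 11.3 to 11.6%. Late endosome and lysosome genes went from 11.5 to 11.9% to 12.5 to 13.3%, and the small class with SOCS box and little characterised members from 1.15 to 1.16% to 2.41 to 2.61%. In these 7 compartments the shares of the groups did not overlap, and in the 2 others, lysosome-related organelles and cilium, they did. Among all genes tested, 73.4% had groups whose FPKM did not overlap. The shares of a library trade off against each other, so a gain such as that of Rab10 lowers the others. For endoplasmic reticulum and Golgi genes the summed FPKM did overlap, at 339.1 to 361.4 untreated and 318.5 to 345.1 with cyclophosphamide.

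**Figure D2:**
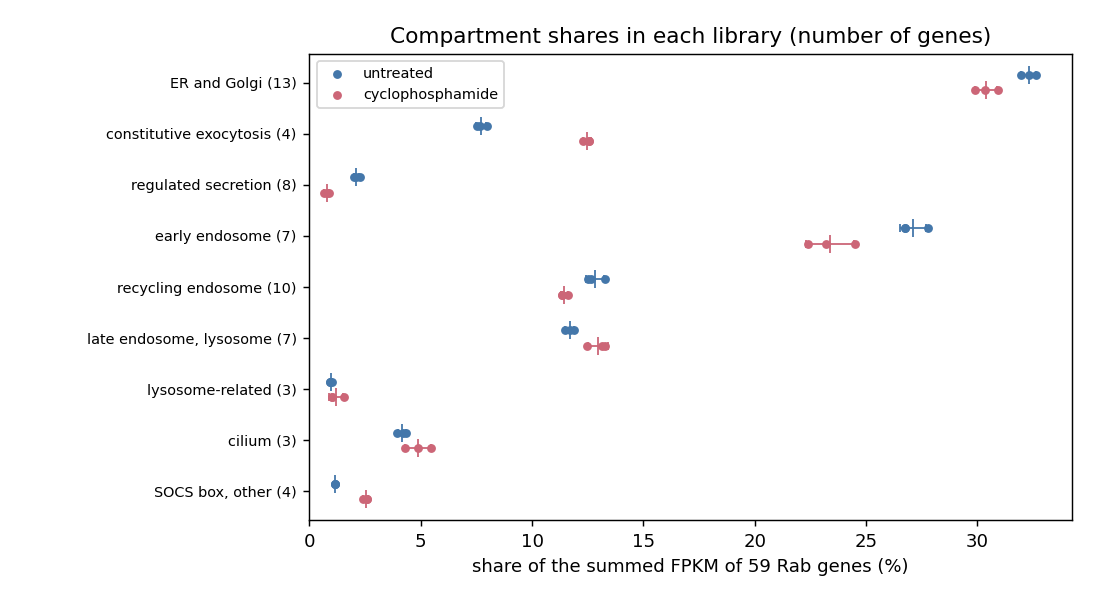
Share of the summed FPKM of the 59 Rab genes (%) held by each compartment in each library, with the number of genes in parentheses. Points are libraries and vertical bars group means with SD (n = 3). Constitutive exocytosis lies at 7.53 to 7.95% without the drug and at 12.3 to 12.6% with it.

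Traffic between the endoplasmic reticulum and the Golgi is the site of 13 members, of which 12 were tested, 4 rose and 5 fell, beside 33.3% higher and 35.9% lower over all genes tested. Rab1a and Rab1b act in the budding and tethering of vesicles from the endoplasmic reticulum, and they are close copies. Rab1b measured 57.2, 64.3 and 60.6 FPKM in the untreated libraries and 34.4, 33.8 and 32.1 FPKM with cyclophosphamide. All 3 treated libraries were low and the groups were far apart, and Rab1b fell with a log2 fold change of -0.86 ± 0.07 (SE, adjusted p = 1.5e-05). Rab1a stood at 56.1 ± 2.50 and 50.4 ± 6.87 FPKM (SD, n = 3 each) with overlapping groups, a log2 fold change of -0.16 ± 0.10 and an adjusted p of 0.17. Without cyclophosphamide replicate 1 the value for Rab1a was -0.27 and passed the test (adjusted p = 0.0063). Rab2a, which works with golgin tethers at the Golgi, measured 98.6, 96.8 and 102 FPKM and then 86.2, 70.2 and 71.3 FPKM. It fell with a log2 fold change of -0.39 ± 0.09 (adjusted p = 0.0049), and cyclophosphamide replicate 1 was the highest of the treated libraries.

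Rab18 sits on the endoplasmic reticulum and on lipid droplets, and it was the most abundant ER and Golgi member that rose. Its levels were 60.4, 57.2 and 62.1 FPKM untreated and 77.0, 70.8 and 73.0 FPKM with cyclophosphamide. The groups did not overlap, with a log2 fold change of 0.30 ± 0.07 (SE, adjusted p = 0.0037). Rab33a, related to the Golgi gene Rab33b and best known for vesicle transport in neurons, measured 16.3, 17.7 and 19.3 FPKM and then 30.9, 42.0 and 33.1 FPKM. The lowest treated library lay above the highest untreated library, and the log2 fold change was 0.98 ± 0.12 (adjusted p = 0.00017). Rab33b, which acts in the Golgi and binds the autophagy protein ATG16L1, had the smaller value of 0.27 ± 0.09 (adjusted p = 0.024). This call was lost without untreated replicate 2 (0.077), cyclophosphamide replicate 1 (0.059) or cyclophosphamide replicate 3 (0.072), as adjusted p-values. Rab19 was untested, with 13 reads untreated and 1 with cyclophosphamide.

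Rab6a and Rab6b, which recruit motors for traffic inside and away from the Golgi, changed in opposite directions. Rab6a, the widely expressed copy, measured 37.9, 34.0 and 42.2 FPKM untreated and 43.1, 44.2 and 46.0 FPKM with cyclophosphamide, a log2 fold change of 0.23 ± 0.09 (SE, adjusted p = 0.041). The gap between the groups was narrow, and Mrpl48, on the opposite strand, overlaps 19.0% of the exon bases of Rab6a and measured 2.56 and 1.75 FPKM. The call was lost without untreated replicate 1 or 2 (adjusted p = 0.091 and 0.12), without cyclophosphamide replicate 2 or 3 (0.075 and 0.12) and with no filter on low values (0.083), and without untreated replicate 2 the log2 fold change was 0.15. Without untreated replicate 2, or without cyclophosphamide replicate 3, both Rab6a and Rab33b lost the call, which left 2 rather than 4 higher members in this compartment. Rab6b, the copy best known from neurons, measured 2.53, 2.87 and 3.33 FPKM and then 1.23, 1.49 and 1.40 FPKM. It fell with a log2 fold change of -1.03 ± 0.15, and all treated values lay below all untreated ones.

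The remaining Golgi members were low. Rab36 measured 1.70, 1.24 and 1.55 FPKM untreated and 0.679, 0.876 and 0.703 FPKM with cyclophosphamide, a fall of -0.90 ± 0.17 on the log2 scale. Rab30, a Golgi-resident GTPase, fell with a log2 fold change of -1.50 ± 0.16, from 1.38 ± 0.08 to 0.425 ± 0.07 FPKM (SD, n = 3). At such levels the size depends on the value added before the logarithm: with 1 in place of 0.1 the log2 fold changes of Rab36 and Rab30 were -0.51 and -0.74, and both were still called. Rab2b and Rab43 did not pass the test, with log2 fold changes of -0.01 ± 0.15 and 0.12 ± 0.19. Their reads are uncertain in any case, since 74.2% and 90.3% of their 50-base stretches also occur in transcripts of other annotated genes.

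Constitutive exocytosis and polarised transport has 4 members, and all 4 changed, Rab10 upward and Rab8a, Rab8b and Rab13 downward, where 69.3% of all genes tested were called. Rab10 carries vesicles from the Golgi and from recycling compartments to the plasma membrane, including the glucose transporter GLUT4 in fat cells. It measured 52.4, 49.5 and 57.7 FPKM in the untreated libraries and 120, 109 and 112 FPKM in the cyclophosphamide libraries. Every treated library was far above every untreated one, with a log2 fold change of 1.10 ± 0.08 (SE, adjusted p = 9.9e-06), or 2.14-fold. Rab10 (ENSMUSG00000020671, chr12:3247428-3309969, minus strand) thereby went from 4.66 to 5.22% of the family's FPKM to 10.4 to 10.6%, while Rab31 went from 11.6 to 12.2% to 5.60 to 6.79%. The antisense gene Rab10os overlaps 4.07% of the exon bases of Rab10 and measured 2.00 and 3.30 FPKM on average, so it is small beside Rab10.

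The other exocytic members moved the opposite way from Rab10. Rab8a and Rab8b, which drive vesicle fusion at the plasma membrane and at the base of the cilium, fell from 14.8 ± 0.64 to 10.8 ± 0.27 FPKM and from 7.36 ± 0.62 to 4.22 ± 0.19 FPKM (SD, n = 3). Their log2 fold changes were -0.45 ± 0.06 and -0.79 ± 0.09 (SE). Rab13, a regulator of junction assembly in epithelia, fell by 0.38 ± 0.10 on the log2 scale (adjusted p = 0.012), from 7.83 ± 0.66 to 6.0 ± 0.58 FPKM. The summed level of the compartment, 83.2 ± 4.32 FPKM untreated and 134.6 ± 6.04 FPKM with cyclophosphamide, thus followed Rab10 and not the number of members that moved.

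Regulated secretion, the release of stored granules on demand, has 8 members, of which 5 were tested: Rab3a, Rab3d, Rab27a and Rab27b were called lower, as 35.9% of all genes were, and Rab26 was called lower on very few reads. Rab3d, which marks secretory granules in exocrine and other secreting cells, measured 10.8, 11.4 and 11.8 FPKM untreated and 3.39, 2.66 and 2.80 FPKM with cyclophosphamide. With a log2 fold change of -1.91 ± 0.11 (SE, adjusted p = 3.5e-06), Rab3d (ENSMUSG00000019066, chr9:21907491-21918192, minus strand) had the largest fall as fitted here, while that of Rab26 was larger in limma-voom and without untreated replicate 2 or cyclophosphamide replicate 3. Rab3a, the synaptic vesicle member of the same subfamily, measured 8.91, 7.93 and 10.7 FPKM and then 5.87, 3.66 and 4.52 FPKM. All treated values lay below the untreated ones, with a log2 fold change of -0.97 ± 0.18 (adjusted p = 0.0016).

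Rab27a and Rab27b, which dock granules and exosome-bearing endosomes at the plasma membrane, were scarce in these cells. Rab27a fell from 1.33 ± 0.21 to 0.450 ± 0.06 FPKM (SD, n = 3) with a log2 difference of -1.37 ± 0.18 (SE), on 261 reads untreated and 90 with cyclophosphamide. Rab27b fell with a log2 fold change of -0.70 ± 0.19 on 191 and 99 reads. Its value was -0.33 and -0.20 with 0.5 and 1 added in place of 0.1, and it was not called when no filter was applied (adjusted p = 0.093). Rab26, a granule and synaptic vesicle GTPase, had 33, 11 and 21 reads in the untreated libraries and 3, 1 and 7 in the cyclophosphamide libraries, with a log2 fold change of -1.62 ± 0.38. It passed the filter on low values only through the untreated libraries, so its direction was fixed by the filter and its call is no support for a fall of the group, and it dropped out when a mean of 1 CPM was asked for. Its size is poorly fixed: it was -0.71 with 0.5 added, -0.42 with 1 added and -2.55 in limma-voom, and 9.36% of its exon bases overlap the more abundant gene Traf7 on the same strand. Rab27a too moved to -0.68 with 1 added. The 3 untested members, Rab3b, Rab3c and Rab37, had 25, 1 and 11 reads untreated and 11, 0 and 7 with cyclophosphamide.

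Early endosome genes showed the reverse pattern by number, with 4 of 7 higher, 1 lower and a median log2 fold change of 0.33, beside 33.3% higher over all genes tested. The summed level nevertheless went from 292.4 ± 5.90 to 252.9 ± 26.4 FPKM (SD, n = 3), and the member that fell was the most abundant. Rab31, which carries cargo from the trans-Golgi network to endosomes and is also called Rab22b, measured 128, 129 and 128 FPKM untreated and 78.4, 58.2 and 65.4 FPKM with cyclophosphamide. Untreated libraries agreed closely and all treated libraries were far lower. Rab31 (ENSMUSG00000056515, chr17:65651729-65772752, minus strand) fell with a log2 fold change of -0.94 ± 0.11 (SE, adjusted p = 1e-04). Rab22a, its nearest relative, acts in endosome recycling and rose. Its levels were 11.4, 12.7 and 12.6 FPKM and then 16.7, 15.2 and 16.7 FPKM, with a log2 fold change of 0.40 ± 0.07 (adjusted p = 0.0015).

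The Rab5 isoforms, the master regulators of early endosome fusion, did not change alike. Rab5c measured 70.8, 81.8 and 80.3 FPKM untreated and 95.7, 73.0 and 75.9 FPKM with cyclophosphamide. The groups overlapped, and the log2 fold change of 0.06 ± 0.11 did not pass the test (adjusted p = 0.64). Rab5b likewise did not pass, at 26.9 ± 0.47 and 25.5 ± 1.86 FPKM (-0.08 ± 0.07, adjusted p = 0.34), and 13% of its 50-base stretches occur in a processed pseudogene. Rab5a rose from 21.7 ± 0.64 to 29.2 ± 3.75 FPKM (SD, n = 3) or by 0.42 ± 0.09 in log2 terms (SE, adjusted p = 0.0039). Rab21, an early endosome GTPase that sorts integrins, rose from 20.02 ± 0.92 to 25.2 ± 0.36 FPKM (0.33 ± 0.06 on the log2 scale). Rab20, which acts in the maturation of phagosomes and endosomes, measured 5.71, 5.14 and 5.02 FPKM and then 9.47, 7.21 and 7.15 FPKM. It rose with a log2 fold change of 0.57 ± 0.13 (adjusted p = 0.0039), with cyclophosphamide replicate 1 above the other treated libraries. A noncoding gene on the opposite strand, E230013L22Rik, overlaps 25.6% of its exon bases and measured 0.512 and 0.230 FPKM.

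Recycling endosome genes moved in both directions, with 2 of 8 tested members higher and 4 lower, beside 33.3% and 35.9% of all genes tested. Rab11a and Rab11b, which return receptors from the recycling endosome to the surface, fell together, with log2 fold changes of -0.41 ± 0.08 and -0.51 ± 0.07 (SE). Their levels went from 34.5 ± 1.76 to 26.0 ± 2.29 FPKM and from 21.1 ± 0.22 to 14.7 ± 0.89 FPKM (SD, n = 3). For Rab11b, 14% of the 50-base stretches recur in other genes, chiefly the pseudogene Rab11b-ps2, which measured 18.2 and 12.8 FPKM. Rab12, which steers transferrin receptor toward lysosomes, fell by 0.33 ± 0.06 on the log2 scale, from 34.3 ± 1.36 to 27.2 ± 0.12 FPKM. Rab15, an endosomal member, fell from 1.01 ± 0.25 to 0.352 ± 0.12 FPKM (log2 fold change -1.31 ± 0.26), and the change was -0.83 and -0.57 with 0.5 and 1 added.

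Rab14 and Rab35 were the recycling members that rose. Rab14, which links the Golgi and endosomes, rose from 13.97 ± 0.76 to 17.4 ± 0.44 FPKM (SD, n = 3) or by 0.31 ± 0.07 in log2 terms (SE). Rab35, which governs fast recycling to the plasma membrane, went from 24.4 ± 0.31 to 29.0 ± 2.86 FPKM, with a log2 fold change of 0.25 ± 0.08 (adjusted p = 0.022). This call was lost without untreated replicate 1, 2 or 3 (adjusted p = 0.062, 0.052 and 0.054), which left Rab14 as the higher member here. Rab4a, another fast recycling GTPase, did not pass, at 8.56 ± 1.22 and 8.37 ± 0.36 FPKM (-0.02 ± 0.11). Rab4b, with 27 and 28 reads and 80.3% of its 50-base stretches shared with an annotated read-through gene model, had a log2 fold change of 0.15 ± 0.54. Rab25 and Rab17, known from epithelia, were untested, with 16 and 7 reads untreated and 19 and 1 with cyclophosphamide.

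Of 5 tested late endosome and lysosome genes, 2 were called higher and 0 lower, beside 33.3% and 35.9% of all genes tested. Rab7, the most abundant member on average, which drives late endosome fusion with lysosomes and autophagosomes, measured 101, 98.8 and 102 FPKM untreated and 111, 93.0 and 101 FPKM with cyclophosphamide. The groups overlapped, with a log2 fold change of 0.02 ± 0.08 (SE, adjusted p = 0.87). Since 27.8% of its 50-base stretches recur elsewhere, mainly in the pseudogene Rab7-ps1 (9.49 and 12.3 FPKM), part of its reads may have been assigned differently. Rab9, which retrieves mannose 6-phosphate receptors from late endosomes to the Golgi, measured 13.6, 14.4 and 14.7 FPKM and then 26.4, 21.7 and 22.6 FPKM. All treated values were higher, and Rab9 rose with a log2 fold change of 0.72 ± 0.09 (adjusted p = 0.00014).

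Rab39b, whose human counterpart is mutated in X-linked intellectual disability, had the largest rise of the family with 0.1 added before the logarithm. It measured 1.03, 1.18 and 0.905 FPKM untreated and 3.0, 4.10 and 4.53 FPKM with cyclophosphamide, on 179 and 684 reads. The log2 fold change was 1.79 ± 0.18 (SE, adjusted p = 5.9e-05). With 0.5 and 1 added it was 1.50 and 1.25, below the 1.52 and 1.47 of Rab40c. Rab39b (ENSMUSG00000031202, chrX:75572046-75578231, minus strand) shares 18.6% of its exon bases with the antisense gene Gm15063, which measured 0.021 and 0.178 FPKM. Rab7b and Rab24 did not pass the test, with values of 0.03 ± 0.11 and 0.14 ± 0.12. Rab24, linked to autophagy, is uncertain because 62.4% of its exon bases are overlapped on the opposite strand by Prelid1, which is more abundant (64.2 and 41.5 FPKM), and the sources used here do not give the strand setting of the counting. Rab9b and Rab39 were untested, with 19 and 1 reads untreated and 9 and 2 with cyclophosphamide.

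Of 3 genes for lysosome-related organelles, such as melanosomes, 2 were tested. Rab32 rose, beside 33.3% higher over all genes tested. It measured 3.17, 2.62 and 3.09 FPKM untreated and 7.27, 9.33 and 5.84 FPKM with cyclophosphamide, with all treated values above the untreated ones. The log2 fold change was 1.29 ± 0.17 (SE, adjusted p = 0.00025), or 2.44-fold. Rab29, which binds the kinase LRRK2, went from 6.89 ± 0.73 to 5.20 ± 1.29 FPKM (SD, n = 3) with overlapping groups and did not pass (-0.42 ± 0.17, adjusted p = 0.052). Without cyclophosphamide replicate 2, the highest of the treated libraries, Rab29 was called lower at -0.61 (adjusted p = 0.0023). Its call also changed with a fit to protein-coding genes alone (0.037) and with a stricter filter on low values (0.046). Rab38, the close relative of Rab32 in pigment cells, had 35 and 14 reads and was untested.

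The 3 cilium members, all linked to the cilium or to Hedgehog signalling, gave 1 rise, beside 33.3% higher over all genes tested. Rab23, a negative regulator of Hedgehog signalling, measured 2.76, 2.76 and 2.53 FPKM untreated and 4.31, 3.70 and 4.40 FPKM with cyclophosphamide. The groups did not overlap, and Rab23 rose with a log2 fold change of 0.60 ± 0.11 (SE, adjusted p = 0.0016). Rab34, which acts in early cilium assembly, had a log2 fold change of 0.21 ± 0.08 and an adjusted p of 0.053 as the authors scaled the libraries. It was called higher with scaling to total reads, median-of-ratios or upper-quartile scaling and limma-voom (0.029, 0.035, 0.010 and 0.018), without untreated replicate 3 (0.035), without cyclophosphamide replicate 1 (0.032) and among protein-coding genes alone (0.044). Rab28 did not pass, with a value of 0.10 ± 0.11.

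The Rab40 proteins carry a SOCS box, a domain that joins them to Cullin5 ubiquitin ligases, and the expressed copies changed in opposite directions. Rab40c measured 8.27, 8.91 and 8.91 FPKM untreated and 28.5, 23.0 and 26.4 FPKM with cyclophosphamide. Every treated library lay far above every untreated one, with a log2 fold change of 1.56 ± 0.09 (SE, adjusted p = 3.8e-06), or 2.95-fold. Rab40b measured 1.98, 1.68 and 2.12 FPKM and then 0.786, 0.667 and 0.404 FPKM. It fell with a log2 fold change of -1.53 ± 0.23 (adjusted p = 0.00049), which was -0.86 with 1 added in place of 0.1. In the coding ends printed above, Rab40b and Rab40c share the lone cysteine at the fourth-last codon and a second cysteine further upstream. Rab40c (ENSMUSG00000025730) lies at chr17:25882114-25919727 and Rab40b (ENSMUSG00000025170) at chr11:121356125-121388251, both on the minus strand.

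Rab42, a little characterised member, measured 2.01, 1.66 and 1.55 FPKM untreated and 0.638, 1.39 and 0.532 FPKM with cyclophosphamide, on 67 and 34 reads. It reached the filter on low values in all untreated libraries but in only 1 treated library, so the untreated libraries alone were enough to pass. The filter thus favoured a fall, and the call of Rab42 is no support for a fall of this class. Rab42 was called lower (-1.05 ± 0.31 SE, adjusted p = 0.016), with cyclophosphamide replicate 2 near the untreated libraries. With 1 added in place of 0.1 the value was -0.59. The call was lost without untreated replicate 1 (adjusted p = 0.054), cyclophosphamide replicate 1 (0.051) or cyclophosphamide replicate 3 (0.053) and with no filter (0.054), which left Rab40b as the lower member of this class. Rab44 was untested, with 15 and 2 reads.

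**Figure D3:**
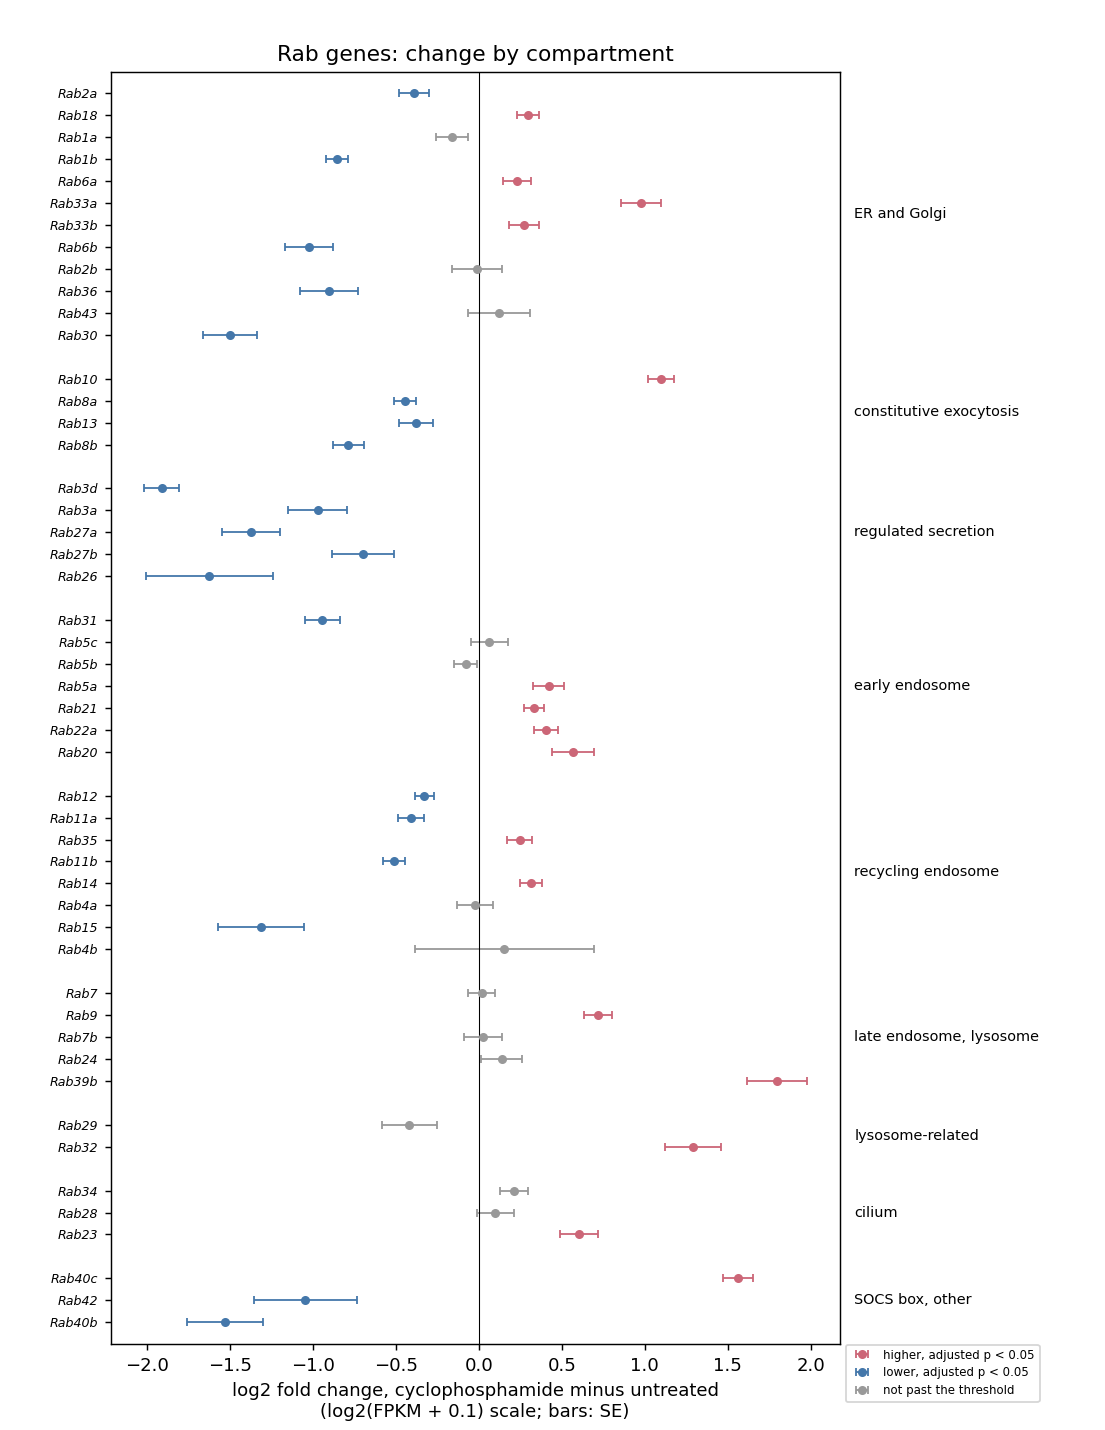
Log2 fold change of the 49 tested Rab genes, cyclophosphamide minus untreated on the log2(FPKM + 0.1) scale, by compartment. Points are limma estimates from 3 libraries a group, bars are standard errors, and colour gives the call at an adjusted p under 0.05. Rab3d and Rab26 are at -1.91 and -1.62, the latter on few reads, while Rab10, Rab40c and Rab39b lie beyond 1.

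Close copies were also compared inside each library, where a ratio largely cancels the scaling between libraries. For low genes it still depends on the 0.1 added to each value. Of 18 pairs of related members, 15 had both members tested. In 10 pairs the ratios of the groups did not overlap, and in 5 they did (Rab2a/Rab2b, Rab4a/Rab4b, Rab5b/Rab5c, Rab7/Rab7b and Rab11a/Rab11b). With 3 libraries a group, the exact two-sided permutation test cannot give less than p = 0.10, which each of the 10 pairs reached (0.15 after Benjamini-Hochberg adjustment over the 15), so no pair could pass 0.05. Among all genes tested 73.4% had groups whose FPKM did not overlap. Other pairs of genes were not examined, so the count of 10 is a description. The pair Rab40b/Rab40c had the largest shift. The log2 ratio of Rab40b to Rab40c was -2.01, -2.34 and -2.02 in untreated libraries and -5.01, -4.91 and -5.72 in cyclophosphamide libraries, a difference of -3.09. With 1 added in place of 0.1 this difference was -2.33.

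The next largest shifts were in Rab22a/Rab31 and Rab6a/Rab6b. The log2 ratio of Rab22a to Rab31 went from -3.49, -3.34 and -3.34 to -2.23, -1.93 and -1.97, a difference of 1.35, so Rab31 stayed the more abundant copy in every library. The ratio of Rab6a to Rab6b went from 3.85, 3.52 and 3.63 to 5.02, 4.80 and 4.94, a difference of 1.25, and Rab6a stayed the more abundant. With 1 added in place of 0.1 the differences of these 2 pairs were 1.31 and 0.94. In Rab3a/Rab3d the order itself turned: the log2 ratio was -0.28, -0.51 and -0.14 untreated and 0.78, 0.45 and 0.67 with cyclophosphamide. In Rab1a/Rab1b it went from a mean of -0.11 ± 0.15 to 0.58 ± 0.17 (SD, n = 3). Smaller differences without overlap were seen for Rab33a/Rab33b (0.71), Rab27a/Rab27b (-0.68, or -0.48 with 1 added), Rab5a/Rab5b (0.50), Rab5a/Rab5c (0.36) and Rab8a/Rab8b (0.34).

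**Figure D4:**
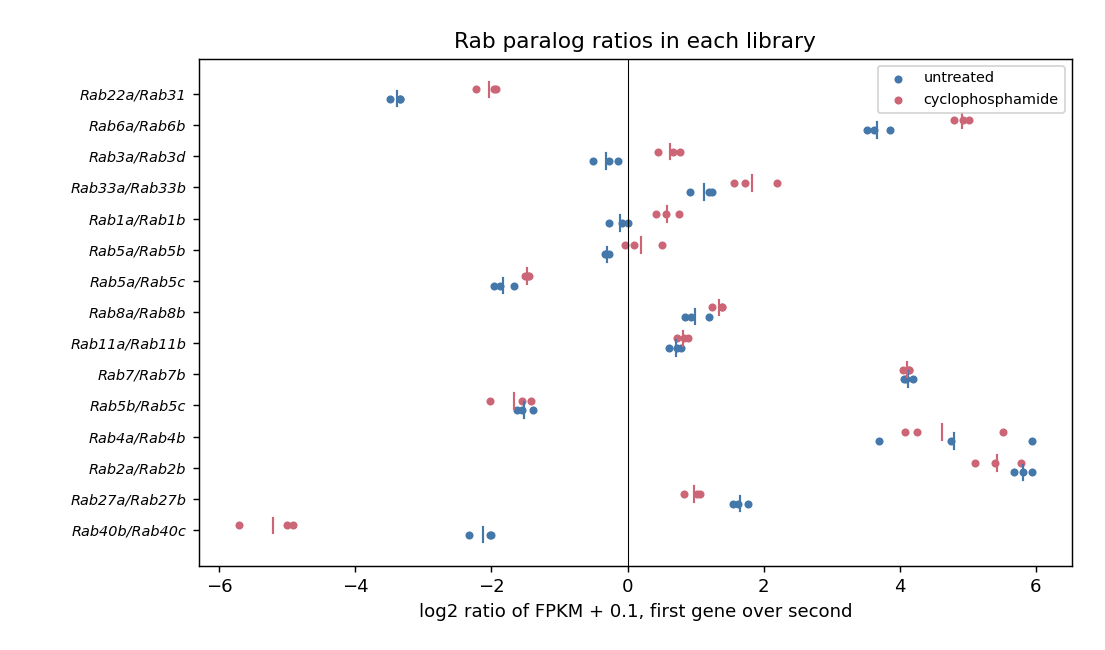
Log2 ratio of FPKM + 0.1 of the first gene over the second in each library, for the 15 pairs with both members tested. Points are libraries and vertical bars group means. Rab40b/Rab40c shifts from -2.12 to -5.21 on average, and Rab3a/Rab3d moves across 0.

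The genes that control and read the Rab switch were examined as lists by role, and each list again changed in both directions, beside 69.3% called over all genes tested. Of 8 genes for prenylation and membrane recycling of Rabs, all tested, 3 rose and 3 fell, or 75% called (median log2 fold change 0.17). Rabggtb, the beta subunit of the enzyme that attaches the lipid to the cysteines shown above, rose from 22.2 ± 1.99 to 58.8 ± 11.98 FPKM (SD, n = 3) or by 1.39 ± 0.14 in log2 terms (SE). The alpha subunit gene Rabggta did not pass the test (0.14 ± 0.10). Chm and Chml, the escort proteins that present Rabs to this enzyme, fell by 0.76 ± 0.11 and 0.41 ± 0.13 on the log2 scale. Gdi2, which encodes a dissociation inhibitor, rose from 31.1 ± 1.67 to 40.0 ± 3.99 FPKM (0.36 ± 0.08). Rabggta and Chml lie outside the rule for named genes and were chosen after their values were seen.

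Of 34 exchange factor genes, 33 were tested, 11 rose and 9 fell, or 60.6% called (median 0.04). Ric1, part of the exchange factor for Rab6, rose by 1.10 ± 0.07 (SE) on the log2 scale, beside Rab6a at 0.23 and Rab6b at -1.03. Hps4, part of the exchange factor for Rab32 and Rab38, rose by 1.08 ± 0.07, beside Rab32 at 1.29. Dennd1b, an exchange factor for Rab35, fell with a log2 fold change of -1.40 ± 0.11, beside Rab35 at 0.25. St5, now called Dennd2b and an exchange factor for Rab13, fell with a value of -1.12 ± 0.11, beside Rab13 at -0.38. Regulators and their substrates thus moved together in some pairings and apart in others.

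The TRAPP complexes, which activate Rab1 and Rab11 at the Golgi, had 4 genes higher and 7 lower of 14 tested, or 78.6% called (median -0.18). Trappc9 fell from 9.19 ± 0.14 to 2.75 ± 0.54 FPKM (SD, n = 3; log2 fold change -1.72 ± 0.13 SE), and Trappc1, a core subunit, fell by 0.77 ± 0.07. Trappc8 and Trappc10 rose by 0.71 ± 0.08 and 0.44 ± 0.06. Trappc9 and Trappc10, which belong to the same complex form, therefore changed in opposite directions.

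Among 37 genes for GTPase activators, 35 were tested, 12 rose and 15 fell, or 77.1% called (median -0.02). Tbc1d2, an activator for Rab7, rose from 3.32 ± 0.15 to 12.9 ± 1.16 FPKM (SD, n = 3; 1.92 ± 0.09 SE on the log2 scale), while Rab7 itself was level. Tbc1d4, also known as AS160 and best known for restraining Rab10, fell from 5.97 ± 0.53 to 1.56 ± 0.49 FPKM (-1.91 ± 0.20), beside the rise of Rab10. Tbc1d12 rose by 1.06 ± 0.08 and Rabgap1l fell with a value of -1.69 ± 0.18.

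Of 50 effector genes, 45 were tested, 18 rose and 16 fell, or 75.6% called (median 0.16). Eea1, the tether of early endosomes that binds Rab5, measured 6.20 ± 0.18 FPKM untreated and 23.1 ± 1.0 FPKM with cyclophosphamide (SD, n = 3), so it rose by 1.88 ± 0.07 in log2 terms (SE, adjusted p = 5.8e-07). Rab11fip5, a Rab11 effector, rose from 15.5 ± 0.96 to 38.3 ± 2.13 FPKM (1.30 ± 0.07), whereas Rab11a and Rab11b fell. Sytl2 and Sytl4, effectors that join Rab27 to secretory granules, fell from 7.24 ± 0.54 to 1.39 ± 0.12 FPKM (-2.31 ± 0.12) and from 16.6 ± 1.38 to 3.65 ± 0.57 FPKM (-2.16 ± 0.12). These falls stood beside those of Rab27a and Rab27b.

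Further effectors are given here although they were chosen after their values were seen. Other Rab5 effectors went both ways, with Rbsn (0.95 ± 0.07 SE), Rabep1 (0.54 ± 0.07) and Appl1 (0.34 ± 0.09) higher and Rabep2 (-0.81 ± 0.11) and Appl2 (-0.49 ± 0.09) lower. Among the synaptotagmin-like effectors of Rab27, Sytl5 fell (-1.23 ± 0.21) and Sytl1 rose (1.21 ± 0.14). Rims2, an effector of Rab3 at release sites, fell (-0.93 ± 0.22), and Rims1 had 52 reads in the untreated libraries together and 0 in the cyclophosphamide libraries, too few for the test. Micall1, a Rab8 and Rab35 effector on recycling tubules, rose (1.38 ± 0.08), and Rab11fip2 fell (-1.53 ± 0.11).

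**Figure D5:**
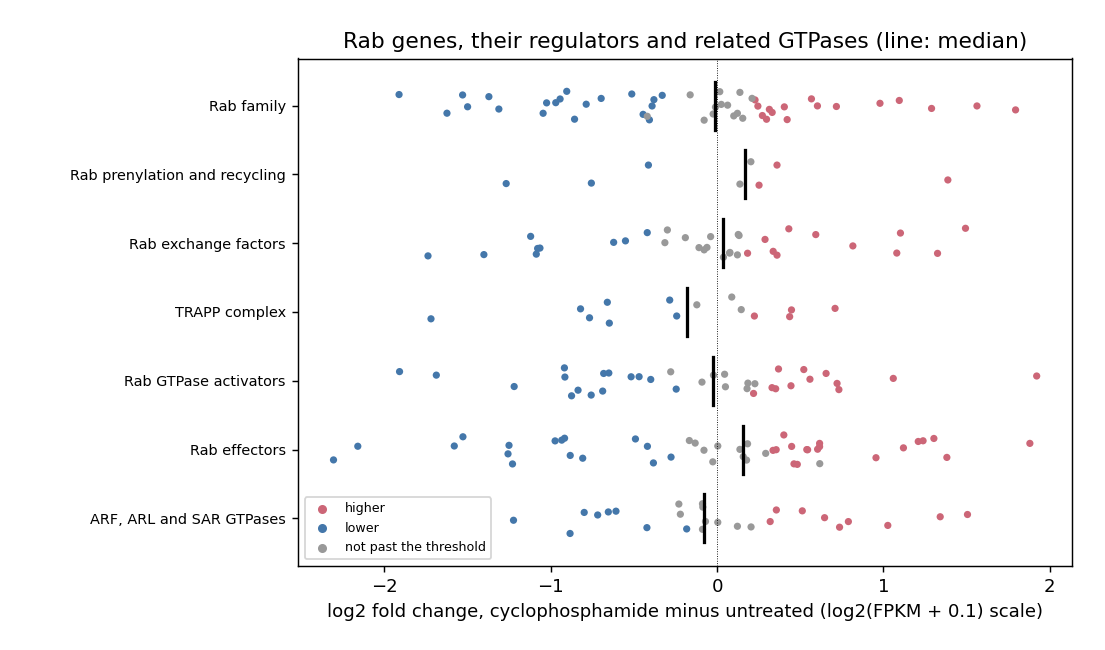
Log2 fold changes (cyclophosphamide minus untreated, log2(FPKM + 0.1) scale) of tested genes of the Rab family, of 5 lists of Rab regulators and effectors and of the ARF, ARL and SAR branch. Points are genes coloured by call, with a small vertical jitter, and black lines are medians, which lie between -0.18 (TRAPP complex) and 0.17 (prenylation and recycling).

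The ARF, ARL and SAR branch of small GTPases, which controls vesicle coats, gave a like picture. Of its 26 tested genes 9 rose and 8 fell, which is 65.4% called beside 73.5% of the Rab genes and 69.3% of all genes, with a median log2 fold change of -0.08. The falls included Arf3 (-0.88 ± 0.06 SE) and Arl6 (-0.72 ± 0.08), and the rises Arl4c (1.51 ± 0.10) and Arl13b (1.03 ± 0.10). No test compared the branches.

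Promoters of the members were searched for 6 short motifs on both strands, a search chosen after the values were seen. RefSeq promoters (GRCm38.p6), from 250 bases before to 50 after each start, were found for 48 of the 59 members, 60 promoters in all. The E-box CACGTG, the letters read by MYC and by the lysosomal regulators TFEB and TFE3 among others, occurred in 10% of the 60 and in 7.15% of all 32851 promoters. It was found in 4 of the 15 genes that rose and had a promoter (Rab5a, Rab20, Rab21 and Rab23), in 1 of 15 that fell (Rab27a) and in Rab24, which was not called. These counts are by gene, and no share by gene over all genes was computed. The windows around these E-boxes in the genes that rose are printed on the strand of the gene with the motif in capitals, to show how its flanks vary.
Rab5a, first: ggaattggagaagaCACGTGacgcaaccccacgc
Rab5a, second: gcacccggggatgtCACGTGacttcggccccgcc
Rab21: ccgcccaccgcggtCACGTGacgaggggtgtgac
Rab20: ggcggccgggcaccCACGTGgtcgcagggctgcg
Rab23: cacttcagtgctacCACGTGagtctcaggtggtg
They lie at chr17:53478985-53479018 and chr17:53479125-53479158 (Rab5a, plus strand), chr10:115315602-115315635 (Rab21, minus strand), chr8:11478667-11478700 (Rab20, minus strand) and chr1:33719664-33719697 (Rab23, plus strand). The motifs begin at -235 and -95 in Rab5a, -30 in Rab21, -46 in Rab20 and -218 in Rab23, counted in bases from the RefSeq gene start (negative values lie before it).

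The counts for the other motifs, like those for the E-box, rest on few genes and had no test. TGATGNAA, a C/EBP-ATF composite element, occurred in 3.33% of the Rab promoters and 3.97% of all, in Rab21 and Rab39b, which both rose. TGACNNNGC, the antioxidant response element, occurred in 16.7% and 12.4%, in 1 of 15 genes that rose and 2 of 15 that fell. TGACGTCA, the cAMP response element, occurred in 3.33% and 1.79%, in 1 gene that rose and 0 that fell. GGAATG, the TEAD element, occurred in 11.7% and 14.7%, in 3 genes that rose and 4 that fell. CCAAT occurred in 43.3% and 37.4%, in 5 of 15 genes that rose and 11 of 15 that fell. As for the E-box, no share by gene over all genes was computed. No binding was measured, so these matches describe letters only.

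Gene size bore little relation to the change. Across the 49 tested members, which share the same 6 libraries and are not replicates, the log2 fold change had a Pearson r of -0.05 (Spearman rho -0.05) with the log2 genomic span and of -0.10 (rho -0.09) with the log2 gene length. With log2 mean FPKM, which comes from the same values, it had an r of 0.37 (rho 0.32), so fold changes tended to be lower among low members. These include Rab26, which passed the filter only through the untreated libraries. They also include Rab42, for which the untreated libraries alone were enough to pass. The same correlation over all genes tested was not computed.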

How the data were processed

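Polyadenylated RNA was selected and copied with random primers, per the labels' protocols, and CASAVA and HISAT2 version 2.0.5 were used, per the submitters' processing notes. The deposited table holds FPKM computed by the authors, as its values show. After multiplication by gene length, 100% of the values in a library lay within 0.01 of a whole multiple of that library's smallest unit. This unit was taken as the worth of 1 read, which gave 16458385 to 17607586 reads per library. The notes name GRCm39, but 98.3% of 54495 shared gene IDs (57 of 59 Rab genes) have the coordinates of GENCODE M21, so coordinates are read as GRCm38. The sources used here do not give the counting tool or its strand setting. No value column was left unused.

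The 14751 genes that reached 10 reads, scaled for library size, in 3 or more libraries and a sum of 15 reads entered the test. This was limma (version 3.58.1, under R 4.3.3), run on the log2 of FPKM plus 0.1 with the trend and moderation options, two-sided, 3 libraries against 3, at a Benjamini-Hochberg adjusted p under 0.05. This scale understates changes of low genes. Paralog ratios had an exact permutation test. Overlap with other genes came from exon coordinates and 50-base stretches of GENCODE M21 transcripts. Of 270 list symbols, 1 was not in the table.

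Members, compartments, lists and tests were chosen with earlier results of these data known. By rule, every tested member is named. Values per library are given for the called members with the 8 largest rises and 8 largest falls at a mean of 1 FPKM or more, the 6 with the highest mean, and pairs whose ratios differ by 1 or more (log2) without overlap. Of each other list, the 2 called genes with the smallest p in each direction are named, marker lists apart, where marker genes were named after their values were seen. Some genes that the rule takes are not reported here.

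Alternatives were the added constant, the filter, the scaling, limma-voom on the recovered reads, the replicate number as a block, protein-coding genes alone and leaving out each library in turn.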

Additional observations from a re-analysis of the deposited data

How the results depend on the processing

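The counts of Rab genes called were 13 to 17 higher and 19 to 21 lower over all alternatives, beside 16 and 20, and no called member turned its direction in any of them. Leaving out each library in turn gave 13 to 16 higher and 19 to 21 lower. Leaving out the filter on low values gave 15 higher and 19 lower of 59 members, with Rab27b, Rab42 and Rab6a lost and Rab19 gained, and it lowered the share of all genes called to 17.9% higher and 19.1% lower of 27510. Asking for 1 CPM (reads scaled to library size) on average left 46 members, 16 higher and 19 lower, with Rab26 and Rab42 lost and Rab29 gained. Upper-quartile scaling moved the median of all genes from -0.02 to 0.07 and that of the Rab genes from -0.01 to 0.08, and the medians of the TRAPP complex and the Rab effectors to -0.09 and 0.25. The medians of GTPase activators and of ARF genes changed sign, to 0.07 and 0.02.

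Same-numbered libraries of the groups did not deviate together (correlations -0.08, 0.01 and -0.03), so the numbers do not pair the samples. With the replicate number as a block, 16 Rab genes were higher and 21 lower, with Rab29 gained, and 4767 of all genes were higher and 5143 lower.

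Some overlapping paralog ratios changed sign when a library was left out. The difference of Rab4a/Rab4b, -0.18 with all libraries, ranged from -0.726 without untreated replicate 2 to 0.394 without untreated replicate 1. That of Rab5b/Rab5c, -0.14, ranged from -0.264 without cyclophosphamide replicate 2 to 0.036 without replicate 1, and that of Rab7/Rab7b, -0.01, from -0.035 without untreated replicate 3 to 0.027 without replicate 2. Low members limit the reading by depth, since Rab26, Rab4b and Rab42 rested on 67 reads or fewer in each group. The causes of these shifts were not tested.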
